A study of Homo sapiens with 12 samples.

Results

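The 6 genes ALDH1A1, ALDH1A2, ALDH1A3, CYP26A1, CYP26B1 and RARB make, degrade or respond to retinoic acid. Chromatin accessibility within 50 kb of each of them, on the build hg19, was described in ARPE-19 and H7 cells. All peaks that touched these windows were taken, 89 in all. Peaks that overlapped by at least 1 base were merged, which gave 44 regions of the 84664 in the series. ARPE-19 is a human cell line that arose spontaneously from retinal pigment epithelium, and H7 is a line of human embryonic stem cells. Accessibility was profiled by ATAC-seq, in which the Tn5 transposase cuts and tags open chromatin, in 3 libraries of 500000 cells per line. ARPE-19 cells were grown in DMEM with fetal bovine serum and H7 cells in mTeSR Plus, so line and medium cannot be told apart. The series title concerns TERT expression in development, and another 6 samples, made by 4C, were not analysed here.

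Retinoic acid is made from vitamin A by way of retinaldehyde, and ALDH1A1, ALDH1A2 and ALDH1A3 are the dehydrogenases that oxidise retinaldehyde to it. CYP26A1 and CYP26B1 are cytochrome P450 enzymes that break retinoic acid down. RARB is a nuclear receptor that binds retinoic acid and pairs with retinoid X receptors on direct repeats in DNA. RARB and CYP26A1 are textbook targets of retinoic acid through such repeats near their own starts. The retinal pigment epithelium handles retinoids for vision, and retinoic acid makes embryonic stem cells differentiate.

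Sequence is shown upstream of 3 starts. Those of RARB and ALDH1A3 had peaks over them, and that of CYP26A1 had none but follows the direct repeat described below. The 250 bases before each start are given 5′ to 3′ along the gene, from RefSeq on GRCh38.p14. RARB lies on the plus strand at chr3:25428013-25428262 and CYP26A1, at the second of its 2 listed starts, on the plus strand at chr10:93073643-93073892. In both, capitals mark the core GTTCA repeated directly with 6 bases between, on either strand. ALDH1A3 lies on the plus strand at chr15:100879581-100879830, and there capitals mark CCAAT.
RARB: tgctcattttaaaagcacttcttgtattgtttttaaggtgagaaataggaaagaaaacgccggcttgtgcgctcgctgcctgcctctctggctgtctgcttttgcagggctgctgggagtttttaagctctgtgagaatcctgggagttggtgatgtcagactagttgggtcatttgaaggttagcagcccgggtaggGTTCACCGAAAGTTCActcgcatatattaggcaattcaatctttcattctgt
CYP26A1: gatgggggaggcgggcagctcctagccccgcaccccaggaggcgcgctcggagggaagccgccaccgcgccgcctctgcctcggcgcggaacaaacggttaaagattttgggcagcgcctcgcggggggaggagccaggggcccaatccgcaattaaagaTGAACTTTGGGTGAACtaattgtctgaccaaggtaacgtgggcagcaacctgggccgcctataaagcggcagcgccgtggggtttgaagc
ALDH1A3: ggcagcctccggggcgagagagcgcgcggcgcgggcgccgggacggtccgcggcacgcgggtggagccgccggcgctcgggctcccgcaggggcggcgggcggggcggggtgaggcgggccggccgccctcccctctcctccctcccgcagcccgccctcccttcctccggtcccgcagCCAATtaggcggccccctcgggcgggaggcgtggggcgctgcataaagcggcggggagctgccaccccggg
The repeat lay 52 to 37 bases before the RARB start on the plus strand, and 90 to 75 bases before the second CYP26A1 start on the minus strand. Of the 35116 RefSeq promoter windows of this length, 17 held the repeat (0.0484%), so it was rare. It was not found before the starts of the other 4 genes. CCAAT, searched on both strands and held by 32.0% of the windows, began 74, 62 and 71 bases before the ALDH1A1, ALDH1A2 and ALDH1A3 starts. It also began 108 bases before the second CYP26A1 start, where it did not overlap the repeat. A match of letters is a description of the sequence and does not show that a factor binds there.

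RefSeq lists 4 starts for RARB, and 2 each for ALDH1A2 and CYP26A1. The start of a gene is here the one at the edge of its hg19 interval, unless another is named. The hg19 starts used for the peaks and the GRCh38 starts of the sequences were compared by their distance to the gene end. These distances differed by 1 base for RARB, 0 for CYP26B1, 5 for the first CYP26A1 start, 138 for ALDH1A3, 217 for ALDH1A2 and 273 for ALDH1A1. Coordinates of peaks below are hg19 and those of sequences are GRCh38. The longest RARB transcripts on GRCh38 begin 87.5 and 599 kb before that start, so what is called upstream of RARB here is inside their gene span. Exons, introns and neighbouring genes were not placed on hg19, so a region is described only as upstream of the gene, in the gene body or past the gene end. For the same reason, the cell types in the labels were not checked against marker genes.

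Each library has its own peak list, with 40110 to 48460 peaks in the ARPE-19 lists and 8622 to 15351 in the H7 lists. The lists hold no read totals. The background that the peak caller assumed over the whole genome could be recovered. It gives relative depth if reads were extended alike and mitochondrial reads had like shares in all libraries, which was not tested. It was 0.425 to 0.483 reads per position in ARPE-19 and 0.592 to 0.653 in H7, which was higher in every H7 library. At this background a peak needed at least 4 summit reads in the ARPE-19 lists and 5 to 6 in the H7 lists. With 3 libraries per line the smallest two-sided exact permutation p is 0.1, so no library comparison here can pass 0.05. Separate cultures are not stated for the triplicates, so each p measures only the spread between these libraries, which may be technical.

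More peaks lay near the 6 genes in ARPE-19 than in H7, in every library. ARPE-19 replicates 1, 2 and 3 had 27, 22 and 29 peaks in the windows, and H7 replicates 1, 2 and 3 had 6, 3 and 2. On average an ARPE-19 library had 26 ± 3.61 of them and an H7 library 3.67 ± 2.08 (SD, n = 3 each), a difference of 22.3 (SE 2.40, exact permutation test, two-sided p = 0.1). The 2 ranges did not overlap. The ARPE-19 mean was 7.09 times the H7 mean, while the ARPE-19 lists as a whole were 3.53 times as long. Per 10000 peaks of a list, 6.07, 5.48 and 5.98 lay near the genes in ARPE-19, and 3.91, 2.19 and 2.32 in H7 (exact permutation test, two-sided p = 0.1, a scale chosen after the values were seen). The bases covered were 9339, 7406 and 9894 in ARPE-19 and 1631, 729 and 430 in H7, a log2 difference of 3.46 (SE 0.57, exact permutation test, two-sided p = 0.1).

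**Figure D1:**
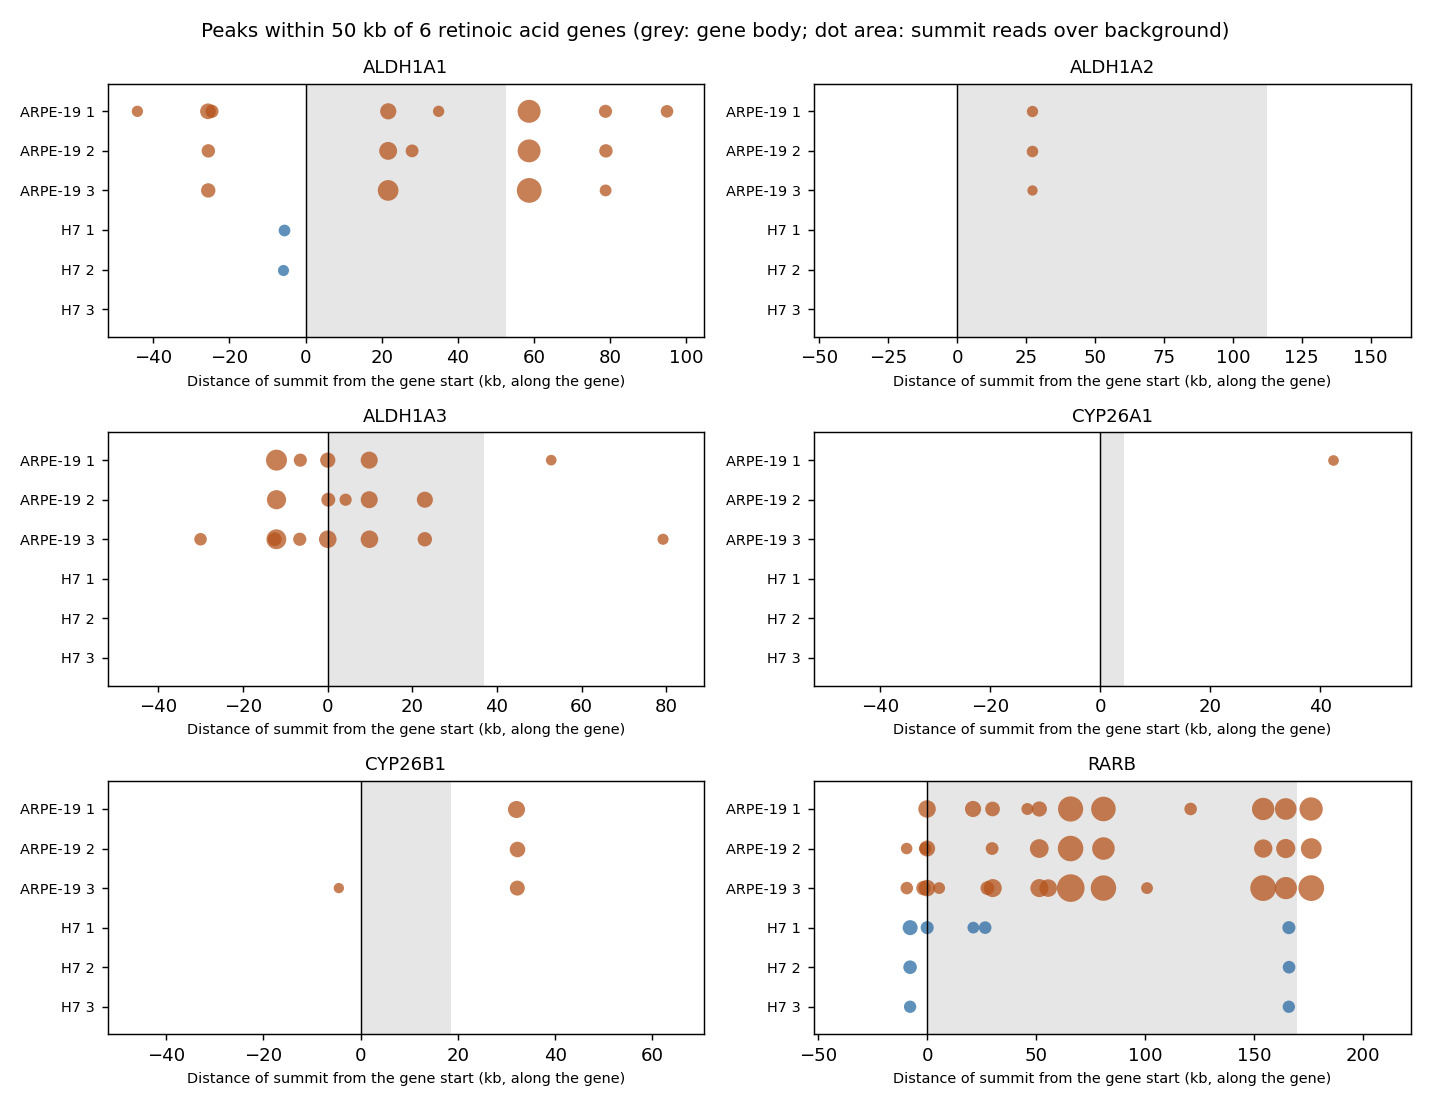
Each panel shows 1 gene, with the distance of peak summits from the gene start in kb along the gene on the x axis and the 6 libraries as rows; grey marks the gene body and dot area grows with summit reads over the genome-wide background. RARB has the most dots in both lines, H7 dots appear near ALDH1A1 and RARB alone, and over a gene start (x = 0) dots appear at ALDH1A3 and RARB.

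Of the 44 regions, 16 were called in each ARPE-19 list and in none of the H7 lists, and these are termed ARPE-19-only. That is 36.4%, against 26.0% of all merged regions in the series. The reverse, H7-only, held for 2 regions or 4.55%, against 1.82% in the series. Another 2 regions (4.55%, against 8.51%) had a peak in both lines, and 0 had a peak in all 6 libraries. In 22 of the 44, against 43.2% in the series, there was a peak in 1 or 2 ARPE-19 libraries and none in H7. The remaining 2 regions (4.55%, against 20.4%) had a peak in 1 or 2 H7 libraries and none in ARPE-19. With so few regions, no share is read as particular to these genes.

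The strongest 8622 peaks of each list, the length of the shortest list, left 15 regions near the genes. Of these, 6 (40.0%, against 14.7% of 27314 regions) were ARPE-19-only and 2 (13.3%, against 6.74%) were H7-only. The peak numbers were then 7, 9 and 7 in ARPE-19 and 6, 2 and 2 in H7, a difference of 4.33 (exact permutation test, two-sided p = 0.1), and the lines were apart by 1 peak at the nearest. Taking equal numbers of peaks is called equal list length below. RARB and ALDH1A1 held the 6 ARPE-19-only regions, and RARB held both H7-only regions.

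The genes differed among themselves in how many peaks lay near them. The windows differ in length, so the merged regions per 100 kb of window are given, where the autosomes as a whole had 2.94 between their first and last region. RARB had 7.79 regions per 100 kb, ALDH1A3 had 6.57, ALDH1A1 had 6.55, CYP26B1 had 1.69, CYP26A1 had 0.958 and ALDH1A2 had 0.471. The first 3 of these were above the autosomal level and the last 3 were below it. In ARPE-19 the mean numbers per library were 11.7 ± 2.08 near RARB, 6 ± 1.73 near ALDH1A3, 5.67 ± 2.08 near ALDH1A1, 1.33 ± 0.577 near CYP26B1, 1.00 ± 0 near ALDH1A2 and 0.333 ± 0.577 near CYP26A1 (SD, n = 3). ALDH1A3 and ALDH1A1 did not differ beyond their spread, nor did CYP26B1 and ALDH1A2. The H7 means were 3 ± 1.73 near RARB and 0.667 ± 0.577 near ALDH1A1 (SD, n = 3), and the other 4 genes had 0 peaks in all 3 H7 lists.

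**Figure D2:**
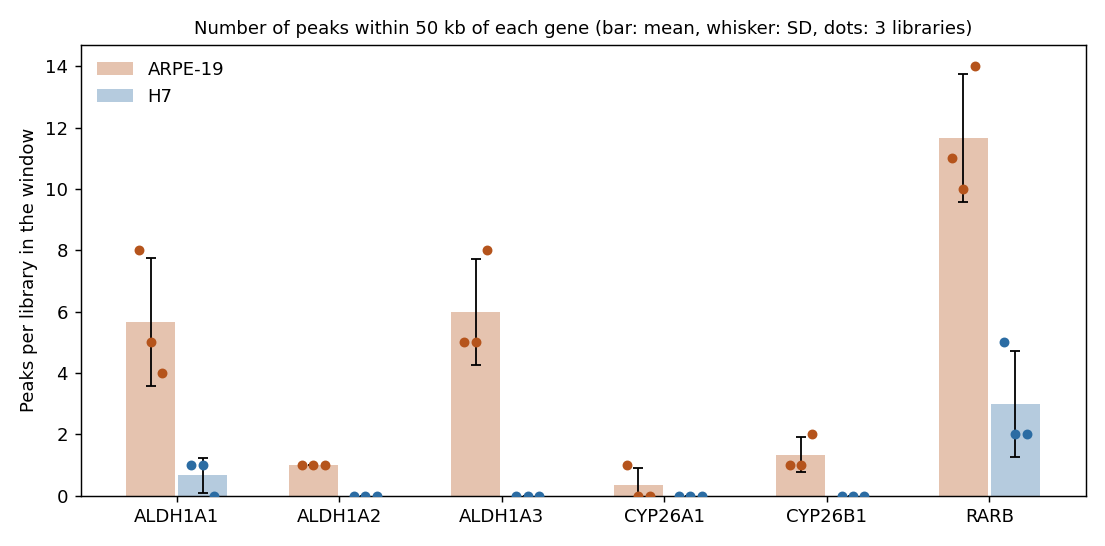
The y axis gives the number of peaks per library within 50 kb of each gene; dots are the 3 libraries, bars the mean and whiskers the SD, with ARPE-19 left of H7 for each gene. The ARPE-19 dots lie above the H7 dots for every gene except CYP26A1, where only ARPE-19 replicate 1 had a peak.

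Among the enzymes that make retinoic acid, ALDH1A1 (chromosome 9, 75515578 to 75568233, minus strand) had 8, 5 and 4 peaks near it in ARPE-19 replicates 1, 2 and 3, and 1, 1 and 0 in H7 replicates 1, 2 and 3. The difference of the means was 5.00 peaks (SE 1.25, exact permutation test, two-sided p = 0.1). At equal list length it was 1.33, with 1, 2 and 2 peaks in ARPE-19 and 1, 0 and 0 in H7 (exact permutation test, two-sided p = 0.2), and the ranges touched. No library of either line had a peak over the ALDH1A1 start. The nearest summit lay 21.7 kb downstream of the start in ARPE-19 and 5.71 kb upstream in H7. The peaks in ARPE-19 therefore lay away from the start, and 4 of the 10 regions near this gene were ARPE-19-only.

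The signal of a region is given as summit reads divided by the genome-wide background of that library. Such a ratio depends on the share of a library's reads that fall in peaks as well as on the openness of the region. The strongest region near ALDH1A1 lay 6.06 kb past the gene end, from 75509311 to 75509840, with 33, 31 and 34 summit reads in ARPE-19 replicates 1, 2 and 3. Its signal was 68.3, 67.7 and 80.0 times background, with an authors' fold enrichment of 13.8 to 14.1. The 3 values were close together, and 95.4% of all ARPE-19-only regions in the series had a lower mean signal. In the gene body, 21.7 kb downstream of the start, the region from 75546355 to 75546819 had 15, 18 and 23 summit reads and 31.1, 39.3 and 54.1 times background. There replicate 3 was highest. The region 25.6 kb upstream, from 75593727 to 75593990, had 14, 9 and 10 summit reads, and the one 26.2 kb past the gene end, from 75489236 to 75489569, had 9, 9 and 6. These last regions were weak, with mean signals of 24.1 and 17.5 times background, where the median ARPE-19-only region of the series had 30.4. The region called in H7 lay from 75573780 to 75574252, 5.84 kb upstream of the start. It had 9 and 7 summit reads in H7 replicates 1 and 2, and was not called in H7 replicate 3 or in ARPE-19.

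ALDH1A2 (chromosome 15, 58245622 to 58358121, minus strand), the main source of retinoic acid in early vertebrate embryos, had almost no peaks near it. Each ARPE-19 library had 1 peak and each H7 library had 0 (exact permutation test, two-sided p = 0.1). All 3 peaks formed 1 region in the gene body, from 58330858 to 58331189, 27.1 kb downstream of the start. It had 6, 6 and 4 summit reads in ARPE-19 replicates 1, 2 and 3, at 12.4, 13.1 and 9.41 times background. This was the weakest of the 16 ARPE-19-only regions, and 0.0953% of all such regions in the series had a lower mean signal. The longest stretch of this window without a peak in any of the 6 lists was 135 kb, and the nearest H7 summit lay 265 kb upstream of the start. With a minimum -log10 q of 5, the mean difference near ALDH1A2 was 0.

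ALDH1A3 (chromosome 15, 101419897 to 101456830, plus strand) had a peak over its start in each ARPE-19 list and in none of the H7 lists. The summits lay 27, 152 and 25 bases past the start in ARPE-19 replicates 1, 2 and 3, within the region from 101419546 to 101420083. Summit reads were 13, 10 and 16, at 26.9, 21.8 and 37.6 times background. Replicate 3 was highest and replicate 2 lowest, with a -log10 q of 6.06, 4.05 and 9.33 in replicates 1, 2 and 3, so that a minimum of 5 leaves the start uncalled in replicate 2. These peaks reached from 239 to 351 bases before the start to 134 to 186 bases past it, and so over the stretch that holds CCAAT in the sequence above, as far as the 138 bases between the builds' starts allow. In RefSeq on GRCh38 the protein-coding entry LOC124903575 ends 27 bases before the ALDH1A3 start, so a peak there cannot be given to 1 of the 2 genes.

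Away from the start, ALDH1A3 had its strongest region 12.1 kb upstream, from 101407268 to 101408079. It had 27, 21 and 21 summit reads in ARPE-19 replicates 1, 2 and 3, at 55.9, 45.9 and 49.4 times background. In the gene body, 9.84 kb downstream of the start, the region from 101429589 to 101429851 had 17, 16 and 16 summit reads, at 35.2, 34.9 and 37.6 times background. Of the 3 ARPE-19-only regions of this gene, the libraries were closest together here, with a mean of 35.9 ± 1.5 (SD, n = 3). Another 6 regions near this gene were called in 1 or 2 ARPE-19 libraries. On GRCh38 the non-coding RNA gene GCAWKR lies 2952 bases upstream of ALDH1A3, and the protein-coding gene LRRK1 lies 2730 bases past its end. Regions upstream of ALDH1A3 or past its end therefore cannot be given to it alone. In all there were 5, 5 and 8 peaks near ALDH1A3 in ARPE-19 replicates 1, 2 and 3, and 0 in each H7 library, a difference of 6 (SE 1.00, exact permutation test, two-sided p = 0.1). At equal list length it was 0.667, with 1, 1 and 0 peaks in ARPE-19 and 0 in each H7 library (exact permutation test, two-sided p = 0.4). The nearest H7 summit lay 128 kb downstream of the start.

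The enzymes that break retinoic acid down had few peaks near them. CYP26A1 (chromosome 10, 94833232 to 94837647, plus strand) had 1 peak within 50 kb in ARPE-19 replicate 1 and 0 in every other library of both lines. That peak lay 42.4 kb downstream of the start, from 94875394 to 94875664, with 5 summit reads. No peak lay over either of its starts or over the direct repeat shown above, and the nearest H7 summit was 199 kb downstream of the start. The exact permutation test gave p = 1 (two-sided), as 1 library decides this count. On GRCh38 its neighbour CYP26C1, another enzyme of this family, lies 3934 bases away.

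CYP26B1 (chromosome 2, 72356367 to 72374991, minus strand) had 1, 1 and 2 peaks in ARPE-19 replicates 1, 2 and 3 and 0 in each H7 library (exact permutation test, two-sided p = 0.1). The region called in all 3 ARPE-19 libraries lay 13.5 kb past the gene end, from 72342606 to 72343191. It had 17, 13 and 11 summit reads, at 35.2, 28.4 and 25.9 times background. The only other peak was in ARPE-19 replicate 3, 4.46 kb upstream of the start, with 4 summit reads. Neither line had a peak over the start or in the gene body, and the nearest H7 summit lay 453 kb downstream of the start.

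RARB (chromosome 3, 25469754 to 25639422, plus strand), the receptor, carried 44 of the 89 peaks and 9 of the 11 H7 peaks. ARPE-19 replicates 1, 2 and 3 had 11, 10 and 14 peaks and H7 replicates 1, 2 and 3 had 5, 2 and 2, a difference of 8.67 (SE 1.56, exact permutation test, two-sided p = 0.1). At equal list length there were 5, 6 and 5 peaks in ARPE-19 and 5, 2 and 2 in H7, a difference of 2.33 (exact permutation test, two-sided p = 0.3), and the ranges touched. Of its 21 regions, 7 were ARPE-19-only, 2 were H7-only, 2 were called in both lines, 9 were called in 1 or 2 ARPE-19 libraries and 1 was called in 1 H7 library. Without the RARB window, the difference over the other 5 genes was 13.7 peaks (exact permutation test, two-sided p = 0.1).

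The RARB start was the only one of the 6 with a peak in both lines. The region from 25469488 to 25469803 had 18, 14 and 14 summit reads in ARPE-19 replicates 1, 2 and 3 and 12 in H7 replicate 1. Over background the signal was 37.3, 30.6 and 32.9 in ARPE-19 and 18.4 in H7 replicate 1, so on this scale the H7 value was below all 3 ARPE-19 values. On other scales it was not: the authors' fold enrichment was 6.86, 7.23 and 5.92 in ARPE-19 replicates 1, 2 and 3 and 6.24 in H7 replicate 1. As a percentile of the peaks of its own list, this peak stood at 67.6, 65.0 and 47.6 in ARPE-19 and at 73.9 in H7 replicate 1, above all 3. With the strongest 8622 peaks of each list, the start was called in 0 ARPE-19 libraries and in 1 H7 library. No peak was called there in H7 replicates 2 and 3. At the depth of those libraries, the weakest ARPE-19 signal corresponds to 18.1 and 19.3 summit reads and the signal of H7 replicate 1 to 10.9 and 11.6, if the share of reads in peaks was equal, which was not tested. With 1 H7 value no test of the signal was made, and without H7 replicate 1 this region would be ARPE-19-only.

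The summits lay 116, 87 and 117 bases before the RARB start in ARPE-19 replicates 1, 2 and 3 and 56 bases before it in H7 replicate 1. The peaks began 171, 131 and 266 bases before the start in ARPE-19 and 153 bases before it in H7 replicate 1, and all 4 ended 34 to 49 bases past it. The direct repeat printed above, 52 to 37 bases before the start, was therefore inside all 4 peaks. Of the genes in the list with this repeat, RARB had called peaks over it and CYP26A1 had none. ARPE-19 replicate 2 had another peak within 1000 bases of the RARB start, from 25468728 to 25468870. Its summit lay 903 bases before the start, with 7 summit reads, and it did not reach the repeat.

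**Figure D3:**
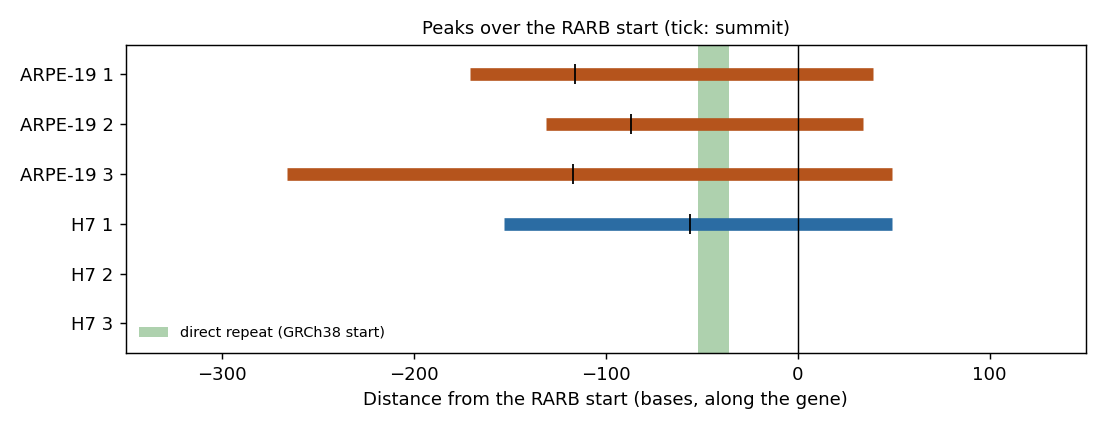
Bars show the peaks that cross the RARB start, by library, and ticks mark the summits. The x axis gives the distance from the start in bases along the gene. Green marks the direct repeat, placed by the GRCh38 start. A further peak of ARPE-19 replicate 2, with its summit 903 bases before the start, lies outside the x axis. The repeat falls inside the peaks of the 3 ARPE-19 libraries and of H7 replicate 1, and H7 replicates 2 and 3 have no bar.

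Most of the strong ARPE-19 signal of the 6 windows lay in the body of RARB and just past its end. From 51.4 to 176 kb downstream of the start, 6 ARPE-19-only regions were spread over 126 kb. The strongest lay 65.8 kb downstream, from 25534811 to 25535680, with 40, 39 and 43 summit reads in ARPE-19 replicates 1, 2 and 3. Its signal was 82.8, 85.2 and 101 times background, and 98.0% of all ARPE-19-only regions in the series had a lower mean. It was also the widest of the 16 ARPE-19-only regions, at 870 bases, where their median was 534 and that of the series 429.

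Next came the region 80.8 kb downstream, from 25550402 to 25550836, with 38, 30 and 36 summit reads, at 78.7, 65.5 and 84.7 times background. The regions 154 kb downstream, from 25623455 to 25624196, and 164 kb downstream, from 25633998 to 25634468, had 31, 19 and 37 and 29, 21 and 27 summit reads in ARPE-19 replicates 1, 2 and 3. In both, replicate 2 was lowest, and the means were 64.2 ± 22.8 and 56.5 ± 9.36 times background (SD, n = 3). The region 6.45 kb past the gene end, from 25645403 to 25646129, had 34, 25 and 37 summit reads, at 70.4, 54.6 and 87.1 times background. On GRCh38 the gene TOP2B overlaps the end of RARB, so this region cannot be given to RARB alone. The region 51.4 kb downstream, from 25520582 to 25521389, was weaker, with 13, 20 and 17 summit reads.

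The last of the 7, from 25499346 to 25500001, had 12, 8 and 17 summit reads in ARPE-19 replicates 1, 2 and 3, at 24.8, 17.5 and 40.0 times background. On GRCh38 another RARB start is listed 30047 bases downstream of the one used above. The 3 summits lay 29922, 29728 and 30017 bases downstream on hg19, and all 3 peaks covered this distance. Where the builds have the same spacing, ARPE-19 thus had peaks over both RARB starts that the window holds, and H7 replicate 1 had one over the first alone. The 300-base RefSeq window of this start held neither the repeat nor CCAAT in its 250 upstream bases. The other listed starts of ALDH1A2 and CYP26A1 had no peak within 1000 bases in any library.

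Both H7-only regions of the 6 windows belonged to RARB. The first lay 7.89 kb upstream of the start, from 25461695 to 25462202, with 17, 12 and 10 summit reads in H7 replicates 1, 2 and 3. Its signal was 26, 20.3 and 15.8 times background, with an authors' fold enrichment of 7.93, 6.38 and 5.07, and 59.3% of all H7-only regions in the series had a lower mean. An ARPE-19 region, called in replicates 2 and 3 with 6 and 7 summit reads, ended 1290 bases before it. The second lay 166 kb downstream, near the gene end, from 25635578 to 25635820, with 12, 10 and 10 summit reads in H7 replicates 1, 2 and 3. Its signal was 18.4, 16.9 and 15.8 times background, and the 3 libraries were close together. It began 1109 bases past the last ARPE-19-only region of the gene body, so the lines had neighbouring regions there with no overlap. The calls at each of these regions split 3 against 0 by the definition of H7-only, so no test was made of that split. With a minimum -log10 q of 5, neither stayed H7-only.

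**Figure D4:**
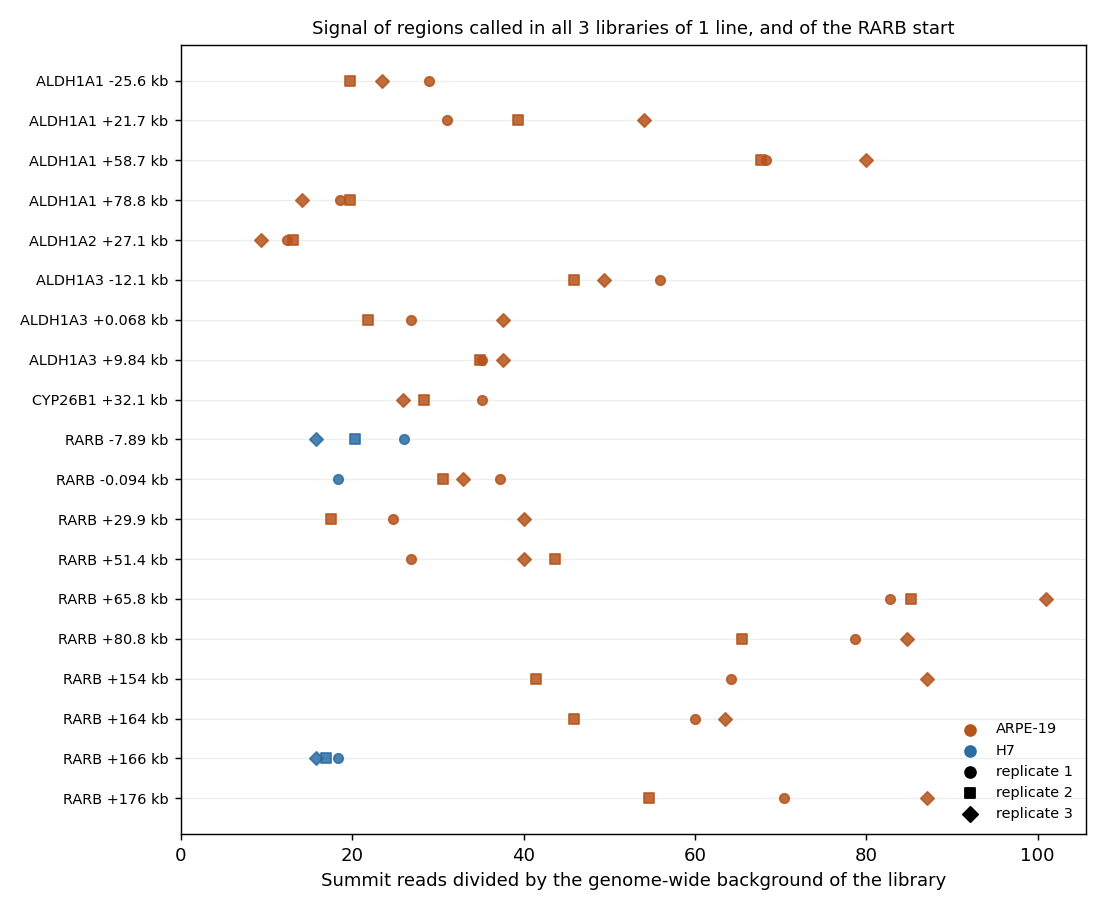
Each row is 1 region, named by its gene and its mean summit distance from the start, and the x axis gives summit reads divided by the genome-wide background; colour marks the line and symbol the replicate. The 16 ARPE-19-only regions range from a mean of 11.6 at ALDH1A2 to 89.7 in RARB, and the 2 H7-only regions of RARB have means of 20.7 and 17.

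The other RARB regions were called in 1 or 2 libraries of a line. The region from 25490650 to 25490977, 21.1 kb downstream of the start, was called in ARPE-19 replicate 1 with 15 summit reads and in H7 replicate 1 with 9. H7 replicate 1 alone had a peak 26.5 kb downstream, with 11 summit reads. Over all 6 genes, the 22 regions called in 1 or 2 ARPE-19 libraries held 25 peaks of 4 to 16 summit reads, with a median of 7. Of these regions, 19 were called in 1 library. ARPE-19 replicates 1, 2 and 3 gave 9, 5 and 11 of the 25 peaks.

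The signals were also set on the depth scale of the other line. The lowest ARPE-19 signal of each of the 16 ARPE-19-only regions, with its local background, came to 5.57 to 54.1 summit reads at the genome-wide background of the H7 libraries. For 15 regions the -log10 p at these values exceeded the lowest in each of the 3 H7 lists. As the genome-wide background was higher in every H7 library, this scaling raises all ARPE-19 counts. The share of all ARPE-19-only regions in the series that would pass was not computed, so the 15 are not read as particular to these genes. For the ALDH1A2 region the value was 4.28 at the depth of H7 replicate 3, where the lowest called was 4.31. The 2 H7-only regions came to 6.71 to 7.63 summit reads at ARPE-19 depth and exceeded the lowest -log10 p of the 3 ARPE-19 lists. These values take the share of reads in peaks as equal in both lines and come from regions chosen for their calls in every library of one line. The part of depth and of that share in the missing calls was not tested, and a region that is not called is not shown to be closed.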

How the data were processed

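ATAC-seq peak lists of 3 ARPE-19 and 3 H7 libraries were used. Per the submitters' processing notes, coordinates are on hg19, and the tools named are MACS2 and bedtools. Aligner, duplicate handling and any shift of reads to the insertion site are not given in the sources used here; an unshifted read moves a summit by a few bases. The deposited lists, 1 per library, hold for each peak its score, summit fold, -log10 p and -log10 q, all the authors' own values. The fold is a ratio to local background, with 1 added to both the summit reads and the background. Summit reads and local background were recovered from the deposited fold and -log10 p, as MACS2 derives both from a Poisson background, with a tolerance of 0.001; at least 99.988% of the nuclear peaks of each list had a solution. The most frequent background was taken as genome-wide. Intervals for counting error are not given, and reads may include duplicates.

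Peaks with at least 1 base within 50 kb of a gene were kept, with gene positions on hg19 as given with the gene list and strands from RefSeq. A peak was over a start if its summit lay within 1000 bases. Comparisons used exact two-sided permutation tests over 20 assignments. Regions called in all 3 libraries of a line, or over a start, are named in full. The genes and lists were chosen with earlier results of these data known. The planned lists of other pathway genes and of cell type markers, and the planned test of signal in regions called in all 6 libraries, could not be used. Recovery of summit reads and the merging into regions of one line were tested on simulated data. The permutation and sign-flip functions were checked on small examples, and the other steps were not tested in this way. Alternatives are given in the closing section. The software was matplotlib 3.10.9 for plots, and scipy 1.17.1, pandas 2.3.3 and numpy 2.4.6 under Python 3.11.15.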

Additional observations from a re-analysis of the deposited data

How the results depend on the processing

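The ARPE-19 excess in peaks near the 6 genes kept its direction in 15 alternatives (4.33 to 30.0 peaks). The log2 difference in bases covered did so in 13 (2.48 to 4.10). It had no value at a minimum -log10 q of 5, where H7 replicate 3 had no peak left near the genes. No alternative could bring an exact p below 0.1. The alternatives on the share of the list and without the RARB window were chosen after the data were seen. When only peaks with -log10 q from 5 upwards were kept, the differences near ALDH1A2 and CYP26A1 were 0. At that minimum, 1 gene start (RARB) had a peak in all ARPE-19 libraries where 2 had one. There were then 12 ARPE-19-only regions, down from 16, and 0 H7-only regions. At equal list length (same number of peaks), the differences were 2.33 peaks near RARB, 1.33 near ALDH1A1, 0.667 near ALDH1A3 and 0 near ALDH1A2, CYP26A1 and CYP26B1, 0 gene starts had a peak in all ARPE-19 libraries, and 6 regions were ARPE-19-only. With 25 kb on each side the CYP26A1 difference was 0, and with 100 kb it was 1.33 (exact permutation test, two-sided p = 0.1). With the gene bodies alone, the differences near CYP26A1 and CYP26B1 were 0, and 10 regions were ARPE-19-only and 1 H7-only. When a peak had to cover 50% of a merged region, 12 regions were ARPE-19-only and 1 was H7-only. Apart from the 100 kb windows, these settings take fewer peaks or bases by construction. Over the fits that each left out 1 library there were 0 to 0.5 peaks near CYP26A1, 0 without ARPE-19 replicate 1, and 0 to 1 gene starts with an H7 peak, 0 without H7 replicate 1. These fits gave 16 to 18 ARPE-19-only regions and 2 to 3 H7-only regions. Except at equal list length, shares over all regions of the series are not given for the alternatives. The region counts in this section are therefore not read as particular to these genes.

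With the replicate block, the paired difference in peaks near the 6 genes was 22.3 (exact sign-flip test, two-sided p = 0.25, the smallest that 3 pairs allow). No pairing of same-numbered libraries was detected: over 7208 regions called in both lines, their deviations correlated by 0.016, -0.001 and 0.001. Such correlations do not exclude a shared preparation. No region near the genes was called in all 6 libraries, so the planned comparison of signal, with its alternatives, gave no value. Lists without read totals limit what depth can show.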
